A study of Mus musculus with 6 samples.

Results

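The muscle atrophy and FoxO-linked genes described here were 9 genes, *Fbxo32*, *Trim63*, *Fbxo30*, *Fbxo40*, *Foxo1*, *Foxo3*, *Gadd45a*, *Mt1* and *Mt2*. They were found by their symbol in the deposited normalized table, which lists 16180 genes, and joined by Ensembl identifier to the raw counts of 51912 genes. All 9 were found. RNA was sequenced from the soleus, a calf muscle rich in slow fibers, of 3 *Mustn1* KO-first heterozygous (HET) and 3 wild-type (WT) mice, with 1 library per mouse. HET mice carry, in every cell of the body, 1 copy of the *Mustn1* KO-first allele, in which a lacZ and neomycin cassette traps the transcript, and the second copy is wild-type. Controls were WT littermates, both groups are labelled as C57BL6/N males of 8 weeks, and the labels name no treatment. The comparison asks whether genes of the muscle wasting program differed between genotypes in the muscle of young adult mice.

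When muscle wastes, after fasting, denervation or glucocorticoid exposure, FoxO transcription factors enter the nucleus and raise the transcripts of ubiquitin ligases that mark muscle proteins for the proteasome. Insulin and growth factor signalling through Akt holds FoxO factors in the cytoplasm by phosphorylation, so the RNA level of a FoxO gene does not read its activity. The transcripts of the ligases *Fbxo32* and *Trim63* are the usual measure of the program, and metallothionein transcripts often rise with them in wasting muscle.

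*Mustn1*, the targeted gene, was measured first. Its level, in CPM, which gives the reads of a gene relative to the reads of its library after TMM scaling for library composition, was 12.6, 16.8 and 13.1 in HET mice 1 to 3 and 23.1, 29 and 30.5 in WT mice 1 to 3. The highest HET mouse was below the lowest WT mouse, and the fitted HET level was 0.513 of the WT level (95% interval 0.410 to 0.641, adjusted p = 0.0452, edgeR). The data went against the sex label: each library held 3858 to 9154 reads on *Xist*, which is transcribed from the inactive X chromosome of females, and 0 to 12 reads summed over *Ddx3y*, *Kdm5d*, *Uty* and *Eif2s3y* of the Y chromosome. The libraries held 26790075 to 50368796 reads on genes. Slow fiber genes summed to 37190 to 42316 CPM and fast fiber genes to 46101 to 54846 CPM. These sums show skeletal muscle, but with the fast sum above the slow sum in each mouse they do not by themselves identify the soleus. All 15 macrophage, 10 fibroblast, 8 tenocyte and 6 adipocyte markers were above 0 in log2 fold change of HET over WT. The macrophage sum was 124 to 161 CPM in HET and 74.0 to 98.5 CPM in WT mice. Of the macrophage markers 6 passed the adjusted threshold in edgeR, beside 8 in DESeq2 and 2 in limma-voom. In edgeR 0 passed without HET mouse 1, HET mouse 3, WT mouse 1 or WT mouse 2. Without HET mouse 2 there were 5, and without WT mouse 3 there were 8. The fibroblast sum was 2539 to 3615 CPM in HET and 1166 to 1970 CPM in WT mice, and 1 fibroblast marker passed in edgeR. The tenocyte sum was 370.0 to 665 CPM in HET and 115 to 296 CPM in WT mice, and the adipocyte sum was 73.2 to 229 CPM in HET and 25.1 to 102 CPM in WT mice. On the other side of 0 were 4 of 4 satellite cell markers, with a sum of 66.6 to 77.5 CPM in HET and 80.0 to 85.1 CPM in WT mice, and 5 of 5 red blood cell markers, with a sum of 71.5 to 119 CPM in HET and 83.5 to 134 CPM in WT mice. Below 0 were also 6 of 7 slow and 7 of 8 fast fiber genes, 5 of 9 endothelial and 1 of 5 smooth muscle cell markers. None of the markers below 0 passed the adjusted threshold in edgeR. The part of these cells in the values below was not tested, and in bulk RNA fewer cells of a type and less RNA per cell cannot be told apart.

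None of the 9 genes passed an adjusted p under 0.05 between HET and WT. Over the 14696 genes tested in the same edgeR fit, 21 passed higher and 1 lower in HET, or 0.15% in either direction. At an unadjusted p under 0.05 the count of the 9 was 0, beside 7.76% of all genes tested. DESeq2, which called 1.54% of all genes, and limma-voom, which called 0.0204%, also called 0 of the 9. All 9 passed the filter on low counts, with 55 to 26631 reads per library.

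**Figure D1:**
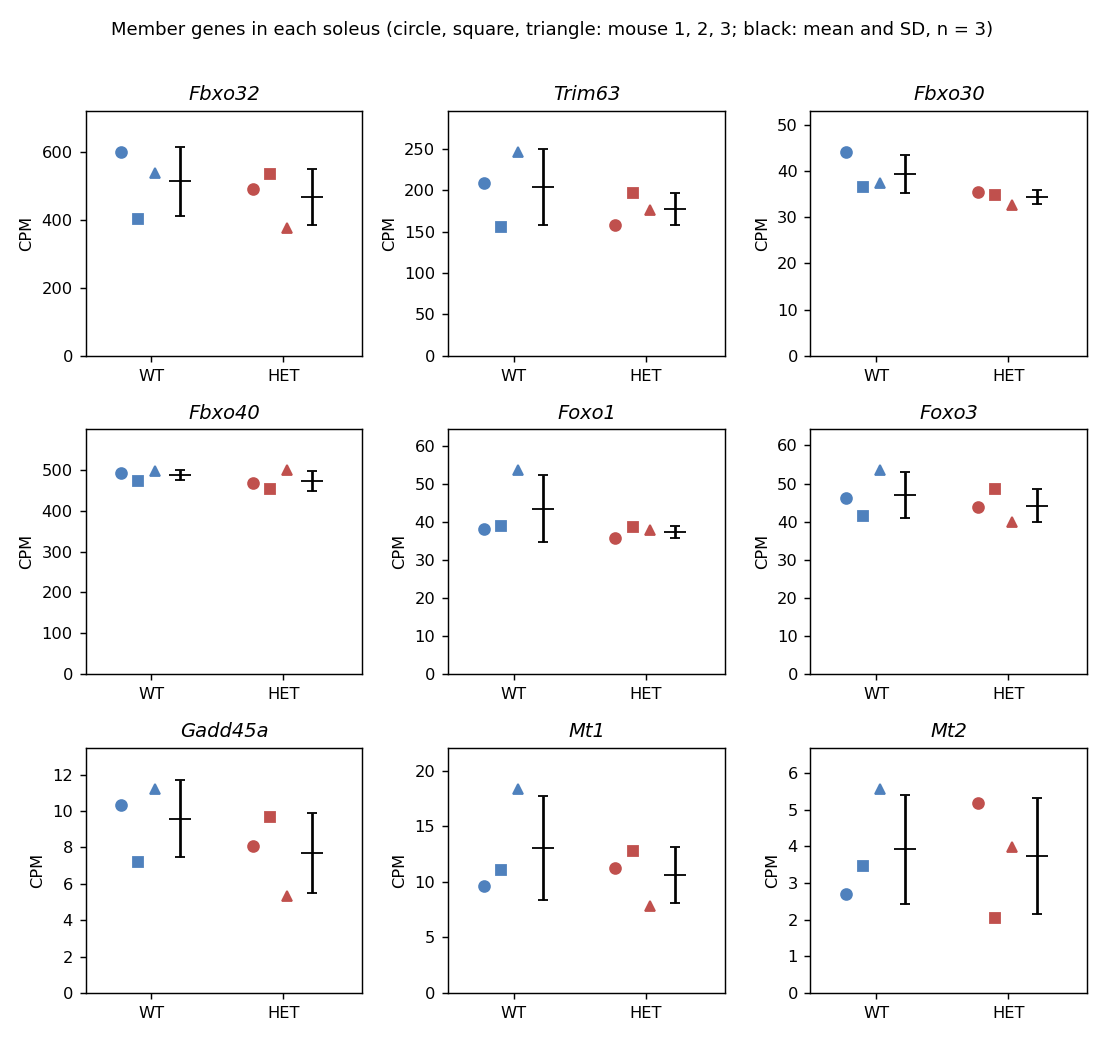
Level of each gene (vertical axis, CPM from 0) in each soleus, with WT mice in blue, HET mice in red, a circle, square or triangle for mouse 1, 2 or 3, and the mean and SD (n = 3) in black. The genotypes overlap in every panel but that of *Fbxo30*, where the 3 HET mice, at 32.6 to 35.4 CPM, sit below the 3 WT mice, at 36.5 to 44.1 CPM.

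*Fbxo32* (ENSMUSG00000022358) encodes atrogin-1, an F-box protein that brings substrates to an SCF ubiquitin ligase. Its exons lie on the minus strand of chromosome 15 between 58175879 and 58214892 in build GRCm38. The level was 492, 536 and 377 CPM in HET mice 1 to 3 and 601, 402 and 539.5 CPM in WT mice 1 to 3. Both genotypes held high and low mice, with WT mouse 1 highest and HET mouse 3 lowest of the 6. The mean was 468 ± 81.8 CPM in HET and 514 ± 102 CPM in WT mice (SD, n = 3), and the log2 fold change was -0.14 with a standard error of 0.17 (edgeR, adjusted p = 0.923). The 95% interval of the fold was 0.701 to 1.18. On the log2 scale the change was 0.0030 without HET mouse 3 and -0.0090 without WT mouse 1, so its size rested on each of these mice.

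*Trim63* (ENSMUSG00000028834; chromosome 4, 134315120 to 134329629, plus strand) encodes MuRF1, a RING-finger ligase of the sarcomere that marks thick filament proteins such as myosin. HET mice had 158, 197 and 176 CPM and WT mice had 209, 155 and 246 CPM. The lowest and the highest of the 6 values were both from WT mice, and the HET mice lay between them. The fitted fold was 0.870 of WT (95% interval 0.682 to 1.11, adjusted p = 0.869, edgeR). The log2 fold change of -0.20 became -0.04 without WT mouse 3.

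*Fbxo30* (ENSMUSG00000047648; chromosome 10, 11281330 to 11298052, plus strand) encodes MUSA1, an F-box protein whose transcript is held down by BMP signalling and rises after denervation. It was read at 35.4, 34.9 and 32.6 CPM in HET and at 44.1, 36.5 and 37.3 CPM in WT mice. All HET mice lay below all WT mice, which was the case for 6.02% of the genes tested. The fold was 0.872 of WT (95% interval 0.747 to 1.02), with an unadjusted p of 0.0781 and an adjusted p of 0.736 in edgeR. Its log2 value of -0.20 became -0.11 without WT mouse 1, and also -0.11 when scaled to the reads on slow and fast muscle fiber markers, an alternative chosen after seeing the data. An exact two-sided permutation test gave p = 0.1, the smallest that 3 mice against 3 allow.

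*Fbxo40* (ENSMUSG00000047746; chromosome 16, 36963460 to 36990467, minus strand) encodes a muscle-restricted F-box protein that targets the insulin receptor substrate Irs1. Its values were the tightest of the 9 in WT mice, at 493, 473 and 496 CPM, beside 466, 452 and 498 CPM in HET mice. The coefficient of variation was 2.53% in WT and 5.0% in HET mice, and the highest of the 6 values was from a HET mouse. The 95% interval of the fold ran from 0.855 to 1.1, the narrowest of the 9.

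Per kilobase of exon, the ligases formed the upper tier of the set. The mean over 6 mice in RPKM, the CPM divided by the exon length in kilobases, was 87.0 for *Fbxo40*, 70.8 for *Fbxo32* and 67.0 for *Trim63*. Their ranges over mice overlapped from 1 gene to the next. The next gene, *Mt1*, had a mean of 9.49 RPKM, and its highest mouse, at 14.8, was below the lowest mouse of *Trim63*, at 54.7. *Fbxo30* at 7.08, *Mt2* at 6.51, *Foxo3* at 6.02, *Gadd45a* at 4.90 and *Foxo1* at 4.67 RPKM followed, and no neighbours in that order were apart beyond their ranges. The length was that of all annotated exons of a gene, which for *Mt1* was 1246 bases and equals its whole span, so its RPKM is understated for the spliced transcript.

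*Foxo1* (ENSMUSG00000044167; chromosome 3, 52268336 to 52353221, plus strand) and *Foxo3* (ENSMUSG00000048756; chromosome 10, 42181841 to 42276755, minus strand) encode the main FoxO factors of muscle. *Foxo1* was read at 35.7, 38.7 and 37.9 CPM in HET and at 38.1, 38.9 and 53.6 CPM in WT mice. WT mouse 3 stood above the other 5 mice, which lay close together. The log2 fold change was -0.22 (SE 0.13, adjusted p = 0.804, edgeR) with all mice and -0.04 without WT mouse 3.

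*Foxo3* was read at 43.9, 48.6 and 40.0 CPM in HET and at 46.1, 41.5 and 53.5 CPM in WT mice. WT mouse 3 was again highest, and HET mouse 3 lowest. The log2 fold change was -0.09 (SE 0.12, adjusted p = 0.923, edgeR) and turned to 0.011 without WT mouse 3. The ratio of *Foxo1* to *Foxo3* reads ranged from 0.795 to 1.0 over the 6 mice. The other FoxO genes were not called either: *Foxo4* was at 129 to 172 CPM and *Foxo6* at 11 to 16.8 CPM.

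*Gadd45a* (ENSMUSG00000036390; chromosome 6, 67035096 to 67037457, minus strand) encodes a small nuclear protein that is induced in denervated muscle and, downstream of Atf4, in fasted and immobilized muscle. It had 8.09, 9.69 and 5.33 CPM in HET and 10.3, 7.20 and 11.2 CPM in WT mice. HET mouse 3 was lowest and WT mouse 3 highest, with the other 4 mice of both genotypes mixed between them. The log2 fold change, -0.33, was the furthest from 0 of the 9, with a standard error of 0.23 (95% interval -0.85 to 0.19, adjusted p = 0.853, edgeR). Without HET mouse 3 it was -0.11, when *Foxo1*, at -0.23, was furthest from 0. Without WT mouse 1 *Mt1*, at -0.49, was furthest, and without WT mouse 3 *Mt2* was, at 0.29 and so above 0. The *Gadd45a* paralog *Gadd45b* ranged from 4.28 to 15.3 CPM with HET mouse 2 highest, and *Gadd45g* from 13.5 to 48.0 CPM with WT mouse 3 highest.

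*Mt1* (ENSMUSG00000031765; 94179082 to 94180327) and *Mt2* (ENSMUSG00000031762; 94172664 to 94173568) are neighbours on the plus strand of chromosome 8 and encode metallothioneins, small cysteine-rich proteins that bind zinc and copper. *Mt1* was read at 11.3, 12.7 and 7.79 CPM in HET and at 9.63, 11.1 and 18.4 CPM in WT mice. WT mouse 3 stood apart, and the other WT mice lay within the HET range. Its log2 fold change of -0.31 (SE 0.26, adjusted p = 0.880, edgeR) became 0.028 without WT mouse 3.

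*Mt2* was read at 5.18, 2.05 and 3.99 CPM in HET and at 2.71, 3.48 and 5.57 CPM in WT mice. The coefficient of variation was 42.3% in HET and 37.8% in WT mice, and the 95% interval of the fold, 0.547 to 1.66, was the widest of the 9. HET mouse 2 had the highest *Mt1* of its genotype and the lowest *Mt2* of all mice. The ratio of *Mt1* to *Mt2* reads was 2.18, 6.22 and 1.95 in HET and 3.56, 3.19 and 3.30 in WT mice, so it was even among WT mice and uneven among HET mice. The value in HET mouse 2 rests on 55 *Mt2* reads. The log2 fold change of *Mt2* was -0.07 (SE 0.35, adjusted p = 0.982, edgeR), and it turned to 0.22 without HET mouse 2 and to 0.29 without WT mouse 3. *Mt3* was at 0.10 to 0.41 CPM and *Mt4* had no reads.

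**Figure D2:**
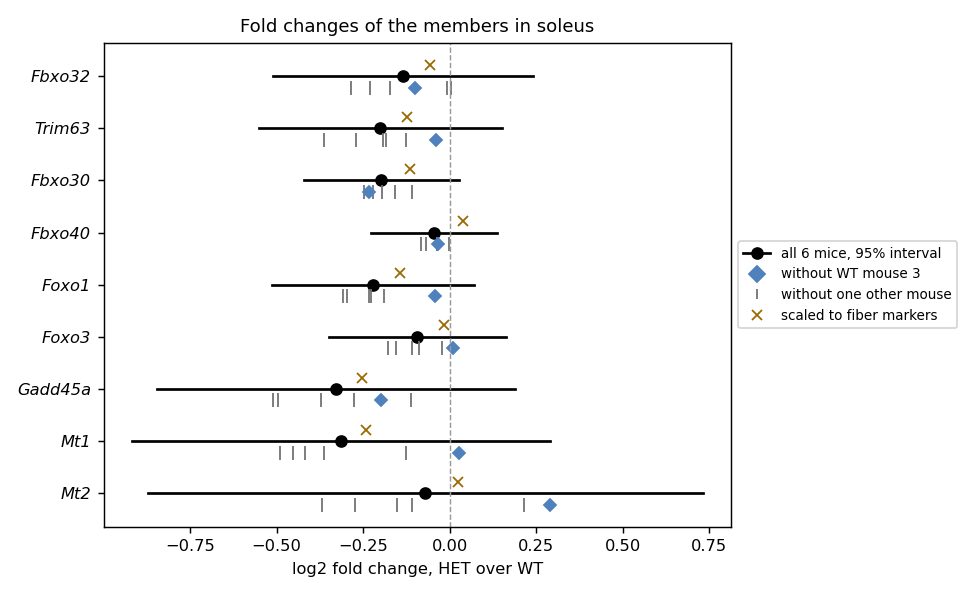
Log2 fold change of HET over WT for each gene (horizontal axis), with all 6 mice and the 95% interval in black, without WT mouse 3 as a blue diamond, without one other mouse as grey ticks, and scaled to muscle fiber markers as a cross. All 9 black points lie below 0 and all 9 intervals cover 0, and the diamonds of *Foxo3*, *Mt1* and *Mt2* lie above 0.

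The 9 log2 fold changes were all below 0, with a median of -0.20 beside -0.02 over all genes tested. Below 0 were also 7994 of the 14696 genes tested. Without WT mouse 3 the median was -0.04 and 6 of the 9 were below 0. Scaling to the fiber markers gave a median of -0.11 with 7 below 0, beside 0.06 and 32.5% below 0 over all genes tested. *Fbxo40* and *Mt2* then turned to 0.040 and 0.023. No gene of the 9 passed the threshold under any of the 15 alternatives, and the smallest adjusted p among them was 0.474, for *Trim63*.

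Among WT mice, the highest and the lowest value of each of the 9 genes differed by more than the genotype means did. WT mouse 3 held the highest value of 6 of the 9 genes, *Trim63*, *Foxo1*, *Foxo3*, *Gadd45a*, *Mt1* and *Mt2*, and of 13.4% of all genes tested. HET mouse 3 held the lowest value of 5 of the 9, *Fbxo32*, *Fbxo30*, *Foxo3*, *Gadd45a* and *Mt1*, and of 21.3% of all genes tested. In the list of 15 glucocorticoid-responsive genes, 13 were highest in WT mouse 3, whose summed level was 1461 CPM beside 946 to 1076 CPM in the other mice. *Per1*, a clock gene that glucocorticoids induce, was at 86.6 CPM in WT mouse 3 and at 17.9 to 39.5 CPM in the others. *Fkbp5*, a chaperone partner of the glucocorticoid receptor, was at 59.5 CPM in WT mouse 3 and at 30.2 to 46.5 CPM in the others. The median log2 fold change of this list was -0.21 with 13 of 15 below 0, and 0.03 with 7 of 15 below 0 without WT mouse 3. This pattern across mice was noticed after the values were seen, and its source was not tested.

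**Figure D3:**
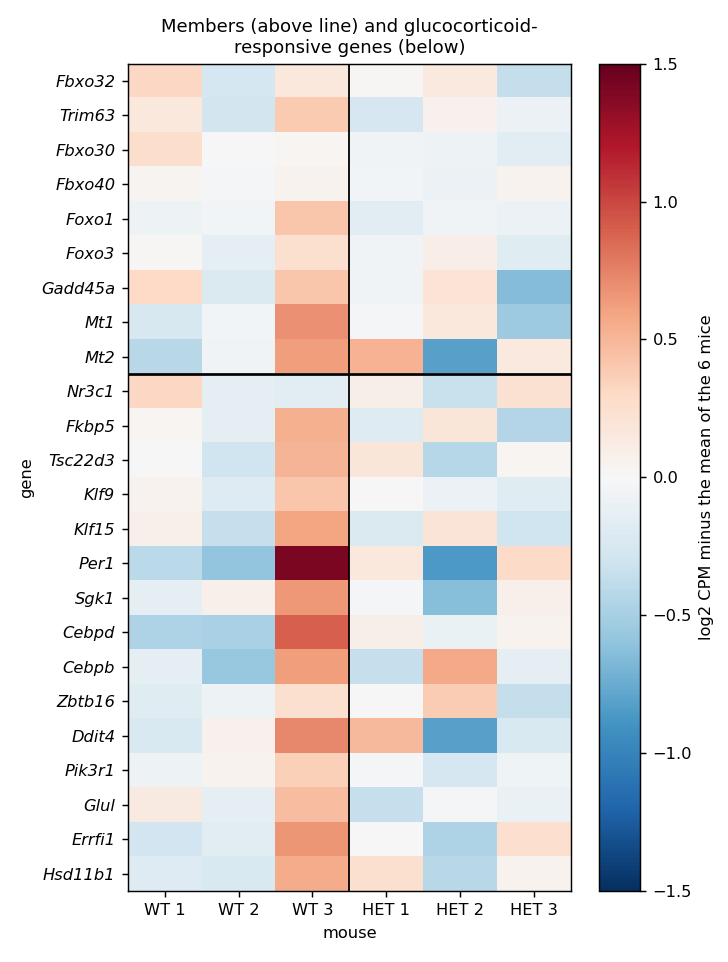
Log2 CPM of each gene minus its mean over the 6 mice (color), for the 9 atrophy and FoxO-linked genes above the line and the 15 glucocorticoid-responsive genes below it, with mice as columns. WT mouse 3 holds the highest value of 13 of the 15 genes below the line and of 6 of the 9 above it.

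*Fbxo32* and *Gadd45a* had the highest correlation among the 36 pairs of the 9 genes, with Pearson's r of 0.926 and Spearman's rho of 0.943 over 6 mice. Exact permutation tests gave p = 0.004 for r and p = 0.017 for rho, which were 0.150 and 0.300 after Benjamini-Hochberg adjustment over the 36 pairs. Leaving out HET mouse 3 and WT mouse 2 lowered r to 0.687. Both mice with low *Fbxo32*, HET mouse 3 and WT mouse 2, were also the lowest for *Gadd45a*.

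Some genes outside the set followed single members closely over the 6 mice. They were chosen as the nearest of 14663 genes by Pearson's r of log2 CPM. For *Fbxo32* they were *Rarres1*, *Gm30684* and *Gstm4*, for *Foxo1* *Shroom3*, *Eif4g3* and *Amotl2*, for *Gadd45a* *Marc2*, *Tmem192* and *Crebrf*, and for *Mt1* *Peli2*, *Gpr146* and *Klf13*, with r between 0.984 and 0.993. Levels were low for *Rarres1*, at 0.319 to 0.669 CPM, *Shroom3*, at 0.828 to 1.60 CPM, and *Gm30684*, at 1.12 to 1.84 CPM. With 6 mice and a search over all genes, such values are a description only.

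The other genes of the pathway were followed in 10 lists. Of 164 listed genes 159 were tested, and 0 passed the adjusted threshold in edgeR, beside 0.15% of all genes. At an unadjusted p under 0.05 in edgeR there were 5 of the 159, all lower in HET. Over all genes tested the share was 7.76% in either direction and 2.0% lower in HET. At the adjusted threshold DESeq2 and limma-voom called 0 of the listed genes as well. The median log2 fold change of the 159 was -0.06, with 113 below 0.

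Among the steps that carry ubiquitin to the proteasome, small differences lay mostly on one side. Of 31 subunits of the 26S proteasome, 29 had a log2 fold change below 0, with a median of -0.09 and a range of -0.19 to 0.06. In 9 of the 31 all HET mice were below all WT mice, beside 6.02% of all genes. *Psma2*, a subunit of the core particle, was at 63.9, 62.1 and 56.1 CPM in HET and at 70.9, 69.6 and 68.0 CPM in WT mice (log2 fold change -0.19, unadjusted p = 0.0443, adjusted p = 0.624, edgeR). *Psmb7*, a catalytic subunit, was at 119 to 137 CPM in HET and 141 to 155 CPM in WT mice. With each mouse left out in turn, 27 to 30 of the 31 were below 0, beside 50.6% to 54.4% of all genes tested. When scaled to fiber markers, 18 of the 31 were below 0, with a median of -0.01. That scaling shifted all genes tested, of which 32.5% were then below 0, with a median of 0.06. Fiber-scaled values of the lists that follow have the same background.

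Of the SCF core and the ubiquitin supply, 11 of 13 genes were below 0, with a median of -0.13, or -0.04 when scaled to fiber markers. *Ube2b*, an E2 enzyme that carries ubiquitin to ligases, had 445, 405 and 429 CPM in HET and 541, 486 and 494 CPM in WT mice. Its groups did not overlap, and its log2 fold change was -0.25 (unadjusted p = 0.0151, adjusted p = 0.417, edgeR). *Ube2g1*, another E2 enzyme, had a log2 fold change of -0.19 with overlapping groups. Of 20 other ligases of muscle, 15 were below 0, but 10 without WT mouse 3. Scaled to fiber markers, 7 were below 0 and their median turned from -0.06 to 0.03, beside 0.06 over all genes tested. Of these, *Asb11* and *Asb5*, of the Asb family of ligase subunits, had the smallest p. *Asb11* was at 115 to 132 CPM in HET and 138 to 147 CPM in WT mice, and *Asb5* at 191 to 231 and 216 to 296 CPM, with adjusted p of 0.498 and 0.543 in edgeR.

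**Figure D4:**
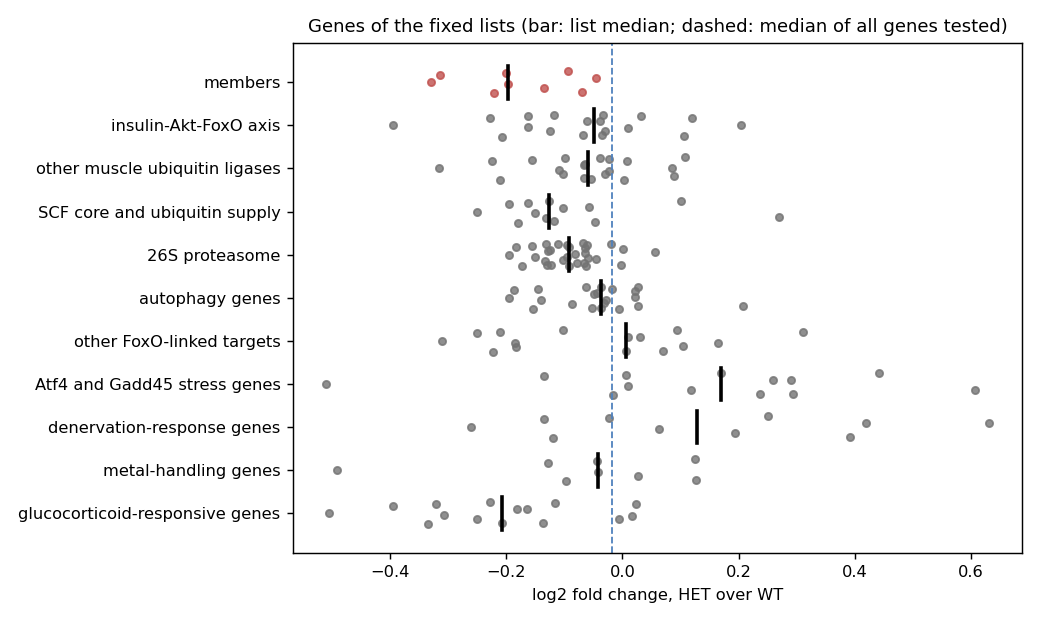
Log2 fold change of HET over WT (horizontal axis) of each tested gene of the 10 pathway lists in grey and of the 9 atrophy and FoxO-linked genes in red, with the median of each list as a bar and that of all genes tested, -0.02, as a dashed line. Medians run from -0.21 for the glucocorticoid-responsive genes to 0.17 for the Atf4 and Gadd45 stress genes, and no gene shown passed the adjusted threshold.

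In the list of the insulin, Akt and FoxO axis, which includes *Foxo4* and *Foxo6*, 13 of the 18 genes were below 0, with a median of -0.05. Scaled to fiber markers, 7 of the 18 were below 0, with a median of 0.035, beside 0.06 over all genes tested. *Insr*, the insulin receptor, was at 160 to 178 CPM in HET and 181 to 202 CPM in WT mice, with an unadjusted p of 0.0808 in edgeR. *Pik3r1*, the regulatory subunit of PI3-kinase, was at 58.4 to 68.8 CPM in HET and 65.8 to 88.8 CPM in WT mice, with WT mouse 3 highest.

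Downstream of FoxO, the 21 autophagy genes had a median of -0.04, with 16 below 0. The median turned to 0.05, with 6 below 0, when scaled to fiber markers, beside 0.06 over all genes tested. The 15 other FoxO-linked targets had a median of 0.01, with 7 below 0, and of -0.21, with 12 below 0, without HET mouse 2. *Atg7*, an enzyme of autophagosome formation, was at 10.4 to 11.9 CPM in HET and 8.87 to 10.1 CPM in WT mice, and *Bnip3*, a mitophagy receptor, at 171 to 193 and 186 to 217 CPM. *Ccng2* and *Cdkn1b*, which restrain the cell cycle, had log2 fold changes of -0.31 and -0.18. *Pdk4*, which turns fuel use from glucose to fat and is named here after its values were seen, had 1285, 3661 and 682 CPM in HET and 727, 2216 and 1592 CPM in WT mice. Its highest and lowest mice were both HET.

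In the 13 tested Atf4 and Gadd45 stress genes the median was 0.17, with 3 below 0, and without HET mouse 2 it was -0.12, with 7 below 0. *Asns*, which makes asparagine and is an Atf4 target, was at 2.32 to 3.09 CPM in HET and 1.71 to 2.43 CPM in WT mice. *Atf3*, a stress-induced transcription factor, reached 41.4 CPM in HET mouse 3 and was at 12.5 to 20.6 CPM in the others. The 10 denervation-response genes had a median of 0.13, with 4 below 0, and of 0.015, with 5 below 0, without HET mouse 1. *Chrna1*, the muscle acetylcholine receptor subunit that rises on denervation, was at 41.7 to 47.5 CPM in HET and 47.3 to 55.5 CPM in WT mice, and *Myh8*, the perinatal myosin, at 27.2 to 38.3 and 17.5 to 28.9 CPM.

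Of the metal-handling genes 8 were tested, with a median of -0.04. It turned to 0.04 when scaled to fiber markers, beside 0.06 over all genes tested. *Mtf1*, the zinc sensor that drives metallothionein genes, was at 30.4 to 36.8 CPM in HET and 31.1 to 38.2 CPM in WT mice. The zinc importers *Slc39a8*, at 0.889 to 1.01 CPM in HET and 1.03 to 1.54 CPM in WT mice, and *Slc39a14*, at 15.7 to 17.5 and 16.0 to 21.2 CPM, had the smallest p of the list. *Glul*, a glutamine synthetase that glucocorticoids induce in muscle, had 97.1, 121 and 115 CPM in HET and 135, 112 and 169 CPM in WT mice (unadjusted p = 0.0538, adjusted p = 0.658, edgeR).

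Start site sequences were read for the members from RefSeq (GRCm38.p6), from 250 bases before to 50 after the annotated start. Of the 9 genes 8 had an entry. *Fbxo32* had none, so its start site was not read for any of the letters below. Letters of a forkhead motif, GTAAACA on either strand, which occur in 3.65% of the 32851 windows, were found in 1 member, *Trim63*, and are shown because *Trim63* is a known FoxO target. Letters of the metal response core, TGCGCNC or TGCACNC, occur in 15.4% and 12.6% of windows. They were found 3 times in *Mt1*, 4 times in *Mt2* and once in *Foxo3*, and 1 match of each metallothionein is shown. Each stretch is on the plus strand, 5′ to 3′, with the matching letters in capitals.
Trim63, chr4:134314915-134314944: cagtctgttctTGTTTACgacccccacggc
Mt1, chr8:94179055-94179084: cggtcccgctgTGCACACtggcgctccagg
Mt2, chr8:94172479-94172508: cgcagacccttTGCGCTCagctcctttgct
The *Trim63* match starts 194 bases before the start site and reads as the reverse complement of the motif. The *Mt1* match starts 23 bases and the *Mt2* match 128 bases before the start site. The glucocorticoid response palindrome was in none of the 9 windows of the 8 members and in 3 of all windows. A match says only that these letters are present. All 5 sets of letters, with TATAAA as the fifth, were chosen after the values were known.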

How the data were processed

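Soleus RNA of 3 HET and 3 WT mice was poly-A enriched, and 1 stranded library of single reads was sequenced per mouse. Per the labels, the authors aligned reads with STAR 2.7.3a to GRCm38.p6 and counted them per gene with featureCounts 2.0.3, and those raw counts were deposited. The authors' second table, a normalized signal, holds those counts divided by 1 DESeq2 size factor per library, and served to find the genes. A further table of theirs holds fold changes and p-values of their own comparison and was not used. No column of values per mouse was unmatched (0).

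Counts were fitted in R 4.3.3 with edgeR 4.0.16 (filterByExpr with a minimum of 10, TMM factors, robust quasi-likelihood test, genotype as the only term, all 6 mice, two-sided, Benjamini-Hochberg over 14696 genes, threshold 0.05). The biological coefficient of variation was 0.143. Intervals are at 95%. Alternatives used DESeq2 1.42.0, limma 3.58.1, RLE or the deposited size factors, no filter or 10 reads in every library, dispersion without robust weights, a block for the replicate number, and each mouse left out. Correlations used SciPy 1.17.1, and plots matplotlib 3.10.9. On simulated counts of 14529 genes, edgeR recovered 182 of 200 changed genes with 6 false calls. That recovery holds only for the sizes of change that were simulated, and the simulated spread was the same for every gene. The 9 genes did not share a spread: the coefficient of variation in WT mice was 2.53% for *Fbxo40* and 37.8% for *Mt2*. Recovery at the small fold changes reported above was not measured, so the chance of calling such changes is not known from it. Counts of same-genotype mice differed beyond sampling noise.

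The genes and lists were chosen with earlier results of these data known. Named genes were the 9 members, per list the 2 genes with the smallest p, the 3 nearest genes of 4 members, and checks of the labels, and outside this rule, chosen after their values were seen, *Foxo4*, *Foxo6*, *Gadd45b*, *Gadd45g*, *Mt3*, *Mt4*, *Mtf1*, *Per1*, *Fkbp5* and *Pdk4*. Genes overlapping *Fbxo32*, *Foxo1*, *Gadd45a* and *Mt2* held 8 to 116 reads over all libraries.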

Additional observations from a re-analysis of the deposited data

How the results depend on the processing

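The count of the 9 genes past the threshold was 0 under all 15 alternatives. The count of pathway genes was 0 under 14 of them and 1 with no filter on low counts, when *Myh8* passed. Scaling to fiber markers turned *Fbxo40* to 0.040 and *Mt2* to 0.023 and moved the median of all genes from -0.02 to 0.06. Leaving out each mouse gave log2 fold changes of -0.29 to 0.0030 for *Fbxo32*, -0.36 to -0.04 for *Trim63*, -0.25 to -0.11 for *Fbxo30*, -0.08 to -0.0010 for *Fbxo40*, -0.31 to -0.04 for *Foxo1*, -0.18 to 0.011 for *Foxo3*, -0.51 to -0.11 for *Gadd45a*, -0.49 to 0.028 for *Mt1* and -0.37 to 0.29 for *Mt2*. The reversals were 0.0030 for *Fbxo32* without HET mouse 3, 0.011 for *Foxo3*, 0.028 for *Mt1* and 0.29 for *Mt2* without WT mouse 3, and 0.22 for *Mt2* without HET mouse 2, and the cause was not tested. Over all genes, 22 were called with all mice, 404 with no filter, 226 by DESeq2, 3 by limma-voom, 6 with non-robust dispersion, 15 without HET mouse 2, 83 without WT mouse 3 and 0 without any 1 of the other 4 mice, so the background share moved while the count of the 9 stayed at 0.

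The replicate numbers were not shown to pair the mice: the deviations of same-numbered mice correlated at 0.203, -0.006 and -0.035. Those of differently numbered mice correlated at -0.137 to 0.133, so the highest value was from a same-numbered pair. With the replicate number as a block, 116 genes were called, 0 of the 9, and the log2 fold change of *Fbxo32* was -0.13 and of *Fbxo30* -0.19.

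With 3 mice per genotype, the 95% intervals of the fold reach from 0.530 to 1.66 over the 9 genes. *Mt2* had the fewest reads, 55 to 275 per library.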
